A study of Oryctolagus cuniculus with 4 samples.

Results

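The genes described here are 9 genes of blastocoel expansion and epithelial junctions, namely ATP1B1 and AQP3 for the movement of sodium and water, and CDH1, OCLN, TJP1, CLDN4, CLDN6, CLDN7 and DSP for the contacts between cells. They were taken from a given list and their probes were found by gene name, accession or description on a rabbit expression array. All 9 had a probe, 16 probes of the 43603 on the array and 9 genes of the 10317 that could be named. RNA came from day 6 blastocysts of the New Zealand White line, in 4 pools of parthenotes and 4 pools of in vivo fertilised embryos. Parthenotes were ovulated oocytes activated with electrical pulses and then with cycloheximide and 6-DMAP, which developed in the oviduct and uterus of synchronised recipient does. Fertilised embryos were flushed from inseminated does of the same line. Every pool mixed several whole embryos, so a lower signal from fewer cells of a type cannot be told apart from less RNA per cell. On each of the 4 arrays a parthenote pool labelled with Cy3 was hybridised together with a fertilised pool labelled with Cy5, the dyes were never swapped, and dye and group cannot be told apart.

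A blastocyst expands because the trophectoderm, its outer epithelium, pumps sodium into the cavity and water follows. The Na,K-ATPase in the basolateral membrane drives this flow, and aquaporins give water a path through the membranes. Tight junctions seal the spaces between trophectoderm cells so that the fluid is held, while adherens junctions and desmosomes keep the cells together as the wall stretches. Rabbit blastocysts are known for the large size they reach before implantation.

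Each probe is a 60-base oligonucleotide, and the probes differ in how independent they are. The sequences of CLDN6 and AQP3 are shown because these genes had the largest ratios of the 9. A pair each from ATP1B1, TJP1 and CLDN7 is shown because those probes share bases and so are not fully separate measurements. Sequences run 5′ to 3′ and were read from the deposited array files. Capitals mark, in CLDN6, a triplet that closes the reading frame open from the first base, and in the other pairs the bases common to every probe of that gene.
CLDN6 A_04_P057662: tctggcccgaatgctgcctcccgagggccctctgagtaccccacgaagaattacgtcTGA
AQP3 A_04_P058982: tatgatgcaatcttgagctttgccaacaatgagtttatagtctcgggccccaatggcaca
ATP1B1 A_04_P002526: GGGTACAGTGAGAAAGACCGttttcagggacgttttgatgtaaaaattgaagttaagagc
ATP1B1 A_04_P002527: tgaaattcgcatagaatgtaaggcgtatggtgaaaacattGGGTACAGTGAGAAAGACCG
TJP1 A_04_P086632: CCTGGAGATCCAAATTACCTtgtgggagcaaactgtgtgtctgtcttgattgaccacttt
TJP1 A_04_P086633: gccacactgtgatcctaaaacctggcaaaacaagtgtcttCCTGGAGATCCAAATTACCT
CLDN7 A_04_P063332: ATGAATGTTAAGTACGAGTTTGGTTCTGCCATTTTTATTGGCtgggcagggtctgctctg
CLDN7 A_04_P063336: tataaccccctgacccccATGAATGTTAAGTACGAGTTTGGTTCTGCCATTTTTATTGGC

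The ATP1B1 probes and the TJP1 probes each shared 20 bases, and all 5 CLDN7 probes shared 42. The OCLN probes had no long stretch in common. The array's own annotation, whose genome build is not given in the sources used here, placed the AQP3 probe at chr1:20027239-20027616. That span is 318 bases longer than the probe, so the probe crosses at least 1 exon junction. The CLDN7 probe A_04_P063334 lay at chr19:11882609-11882762, a span 94 bases longer than the probe, and likewise crossed a junction. The ATP1B1 probe A_04_P002526 lay at chr13:23871750-23871809 with no such gap. CLDN4 and CLDN6 had no position there. The description field of the array calls the targets of CDH1, CLDN4, CLDN6 and CLDN7 like these genes, and binding of related transcripts to their probes was not tested.

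Each of the 16 probes was well above background in all 8 pools, and none was saturated. A signal here is the scanner software's processed intensity, with background removed and dyes balanced, and it can be compared between pools for 1 probe but not between probes. The log2 ratio sets the parthenote pool over the fertilised pool of the same array, so a positive value is a higher signal in parthenotes. The test was limma on the 4 ratios, with p-values adjusted over all 43595 probes tested, and a call needed an adjusted p under 0.05. Nothing in the labels ties the pools to particular does, so a p-value measures the spread between pools.

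The levels of the 9 genes were close in parthenotes and fertilised embryos. CLDN6, a claudin of early embryonic epithelia, was the 1 gene that passed the test and was 1.23-fold higher in parthenotes, although its sign turned when normexp-corrected signals were only median centred. AQP3, a channel for water and glycerol, had a similar ratio of 1.25-fold that missed the threshold and turned in the same way. The other 7 genes had log2 ratios between -0.18 and 0.04. In all, 1 of the 9 genes and 1 of the 16 probes were called, beside 20.6% of all probes on the array in either direction, 9.53% higher and 11.1% lower in parthenotes. Probes of 1 gene that share bases are not fully separate measurements, so the 16 probes overstate the number of measurements. Among the 24137 probes that were, like the members' probes, well above background in every pool, 29.5% were called. The median log2 ratio of the 9 genes was -0.05 against 0 for all probes, and the median of their absolute values was 0.15 against 0.18. None of the 9 lay beyond 0.5 on the log2 scale, whereas 8446 of the 43595 probes did and 3417 of the 24137 well above background. With 9 genes, such an absence does not set them apart from the bright probes. Ratios of the member probes had a median SD of 0.12 over the arrays, against 0.14 for the probes well above background.

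**Figure D1:**
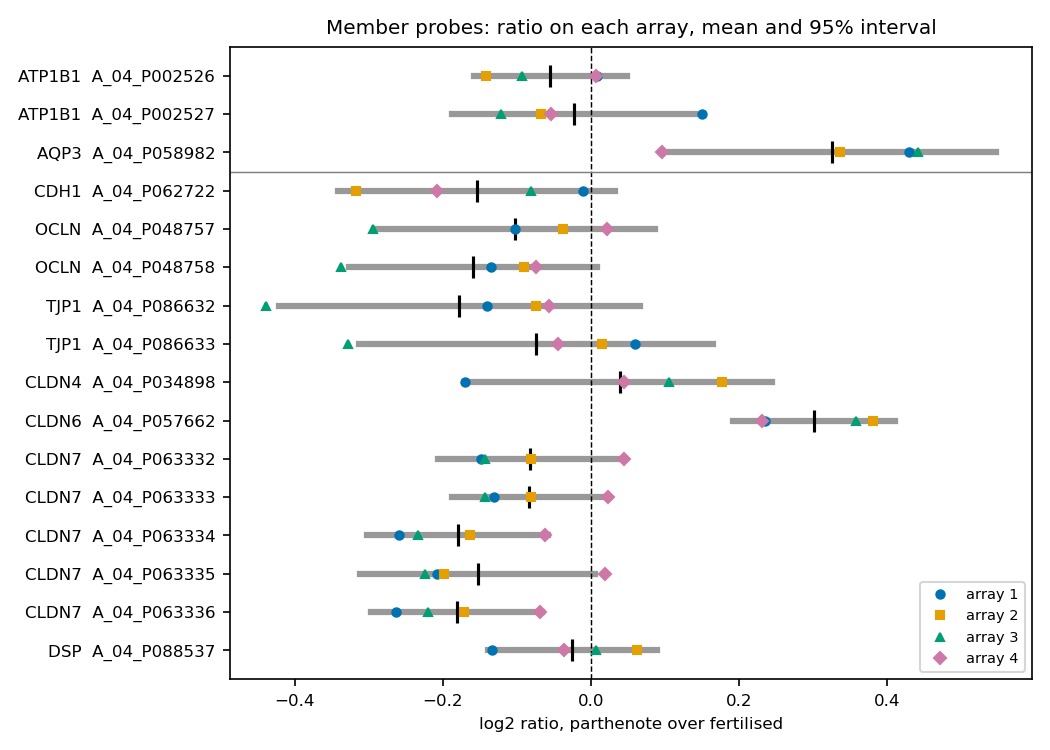
Log2 ratio of parthenote over fertilised for the 16 member probes (horizontal axis, no unit), with a point for each of the 4 arrays, a black tick for the mean and a grey bar for the unadjusted 95% confidence interval. The line separates the pump and channel probes from the junction probes. All 4 arrays lie above 0 for AQP3 and CLDN6, with means of 0.33 and 0.30 that turned negative when normexp signals were median centred, and the other probes lie near or across 0.

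ATP1B1 encodes the beta 1 subunit of the Na,K-ATPase, which brings the catalytic subunit to the membrane. Its brighter probe gave signals of 67410, 62395, 60629 and 59333 in the parthenote pools of arrays 1 to 4 and 67044, 68822, 64686 and 59032 in the fertilised pools. The groups overlapped, and the lowest pool of both was on array 4. The log2 ratio was -0.05 ± 0.07 (SD, n = 4), with ratios of 0.01, -0.14, -0.09 and 0.01 on the arrays and an adjusted p of 0.367. The fold had a 95% interval of 0.896 to 1.03. The other probe had a log2 ratio of -0.02 ± 0.12 and an adjusted p of 0.889. When the intensities were instead corrected with normexp and loess, the ratio of the brighter probe was -0.17 and passed with an adjusted p of 0.0255, which the deposited ratios did not give.

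AQP3 signals were 1320, 1363, 1712 and 1337 in the parthenote pools and 980 (array 1), 1079, 1261 and 1251 in the fertilised pools. Every parthenote pool was above every fertilised pool, and array 4 had the smallest gap. The log2 ratios of arrays 1 to 4 were 0.43, 0.34, 0.44 and 0.10, with a mean of 0.33 ± 0.16 (SD, n = 4). The fold was 1.25 with a 95% interval of 1.08 to 1.46, the unadjusted p was 0.0163 and the adjusted p was 0.0656. It passed in 6 of the 17 settings computed, and in 2 of those 6 the direction was the opposite one. Without array 4 the log2 ratio was 0.40 with an adjusted p of 0.0588. Of the pump and channel genes, 0 of 2 were called by limma and 0 by the methods' t-test, while 1, AQP3, had an unadjusted p under 0.05 in each. Of all 43595 probes, 15940 had an unadjusted p under 0.05 by limma and 13994 by the methods' t-test.

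**Figure D2:**
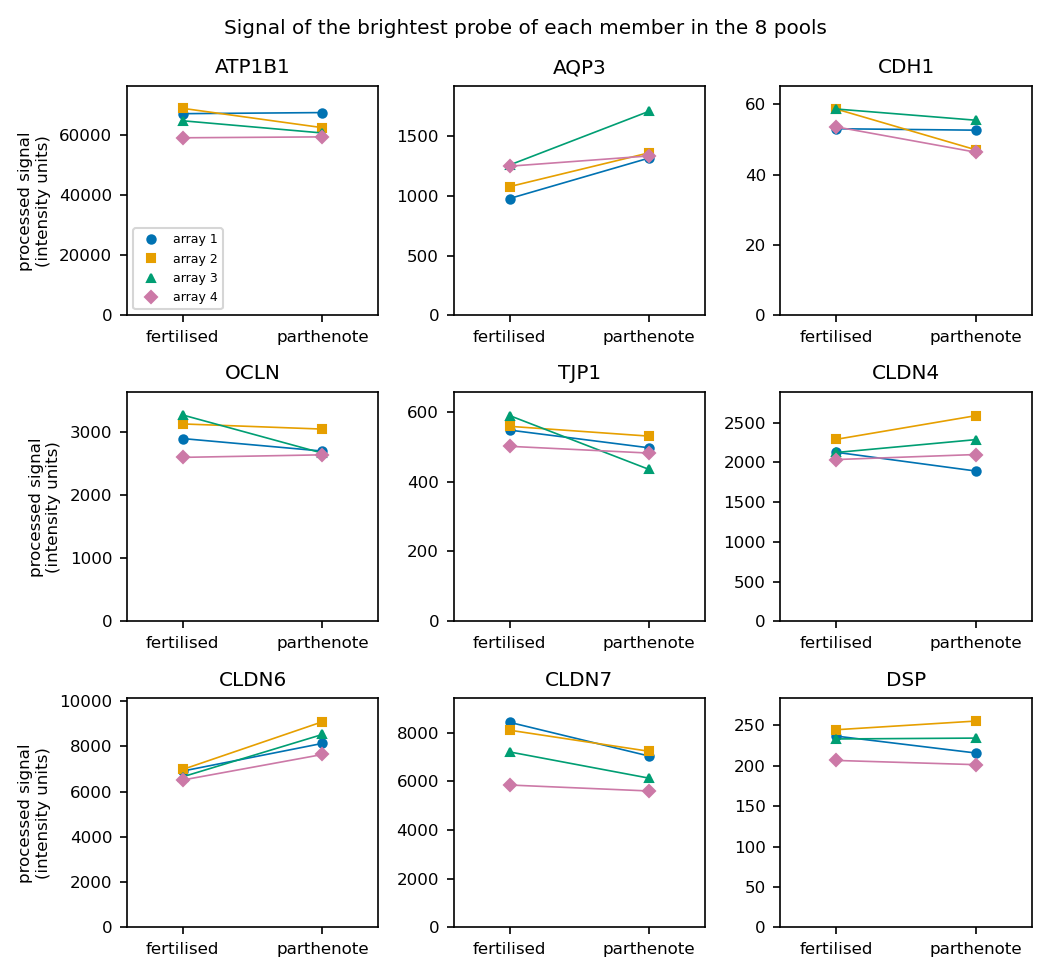
Processed signal in intensity units (vertical axis, from 0, a scale of its own in each panel) of the brightest probe of the 9 genes in the 4 fertilised and 4 parthenote pools, with a line joining the pools of 1 array. The groups do not overlap for AQP3 (980 to 1261 against 1320 to 1712) or CLDN6 (6511 to 6977 against 7640 to 9085), and they overlap for the other 7 genes. The share of all probes without overlap is not given here, so this only describes the pools and does not set the genes apart.

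CDH1, the cadherin of epithelial adherens junctions, was the dimmest measurement. Its signals were 52.6, 47.0, 55.4 and 46.3 in the parthenote pools and 53.0, 58.6, 58.6 and 53.5 in the fertilised pools. The parthenote pool was lower on all 4 arrays, but the groups overlapped. The log2 ratio was -0.15 ± 0.14 with an adjusted p of 0.191, and it passed in 0 of the 17 settings by limma or the methods' t-test, with an unadjusted p of 0.0813 in the deposited ratios.

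OCLN, a membrane protein of tight junctions, had signals of 2692, 3040, 2660 and 2633 in the parthenote pools and 2890, 3121, 3263 and 2593 in the fertilised pools. The parthenote pool was lower on 3 of the 4 arrays and the groups overlapped. The log2 ratio was -0.10 ± 0.14 with an adjusted p of 0.355, and the other probe gave -0.16 ± 0.12 with an adjusted p of 0.15. TJP1, the scaffold that ties occludin and claudins to actin, had signals of 497, 530 (array 2), 435 and 481 in the parthenote pools and 547, 558, 589 and 501 in the fertilised pools. All 4 arrays had the lower signal in the parthenote pool for this probe, and the groups overlapped. The log2 ratio was -0.18 ± 0.18, the adjusted p was 0.236, and the other TJP1 probe gave -0.07 ± 0.17. Array 3 had the lowest ratio for all 4 probes of OCLN and TJP1, from -0.44 to -0.29. Without array 3 the log2 ratio of the brighter probe was -0.04 for OCLN and -0.09 for TJP1.

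CLDN6 had signals of 8130, 9085, 8524 and 7640 in the parthenote pools and 6907, 6977, 6653 and 6511 in the fertilised pools. Every parthenote pool was above every fertilised pool. The log2 ratios were 0.24, 0.38, 0.36 and 0.23, with a mean of 0.30 ± 0.08 (SD, n = 4). The fold was 1.23 with a 95% interval of 1.14 to 1.33 and an adjusted p of 0.0231. The call needed all 4 arrays, since without array 1, 2, 3 or 4 the adjusted p was 0.0576, 0.0825, 0.0905 and 0.0873 while the log2 ratio stayed between 0.27 and 0.32. By the methods' t-test the adjusted p was 0.0487. CLDN6 passed in 13 of the 17 settings, and in 2 of those 13 the direction was the opposite one.

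CLDN4 and CLDN7 are claudins of tight epithelia. CLDN4 signals were 1891, 2589, 2287 and 2099 in the parthenote pools and 2127, 2291, 2125 and 2036 in the fertilised pools, so the groups overlapped. Its log2 ratio was 0.04 ± 0.15 with an adjusted p of 0.796 and a 95% interval of the fold from 0.891 to 1.18. The brightest CLDN7 probe gave 7035, 7230 (array 2), 6127 and 5601 in the parthenote pools and 8422, 8098, 7206 and 5847 in the fertilised pools. On each array the parthenote pool was the lower, while the spread from array to array was larger than the gap and the groups overlapped. The log2 ratios were -0.26, -0.16, -0.23 and -0.06, with a mean of -0.18 ± 0.09, a 95% interval of the fold from 0.811 to 0.961 and an adjusted p of 0.0662. The 5 CLDN7 probes gave means from -0.18 to -0.08 with adjusted p from 0.059 to 0.276. None was called, though 2 had an unadjusted p under 0.05, and array 4 had the highest ratio for all 5. The brightest CLDN7 probe passed in 4 of the 17 settings, at -0.17 with normexp and loess on repaired backgrounds, at -0.18 in the ratio of processed intensities, and at -0.88 and -0.94 in the median-centred settings. The CLDN7 probe ratios of 1 array differed by at most 0.13. For ATP1B1, OCLN and TJP1 the largest such differences were 0.14, 0.10 and 0.20.

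DSP encodes desmoplakin, which anchors desmosomes to keratin filaments. Its signals were 216, 255, 234 and 201 in the parthenote pools and 236, 244, 233 and 206 in the fertilised pools. The groups overlapped and each was the higher on 2 arrays. The log2 ratio was -0.03 ± 0.08 with an adjusted p of 0.735, and the 95% interval of the fold was 0.908 to 1.06.

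Of the 7 junction genes 1 was called and it was CLDN6, with 1 gene higher and 1 lower at an unadjusted p under 0.05, CLDN6 and CLDN7. Over the array 15940 of 43595 probes had an unadjusted p under 0.05 by limma, so this count does not set the junction genes apart. Coefficients of variation over pools for the 16 probes ran from 3.47% to 15.5% in parthenotes and from 3.22% to 16.0% in fertilised embryos. The log2 ratios of the 9 genes across all settings are drawn in the plot of settings.

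**Figure D3:**
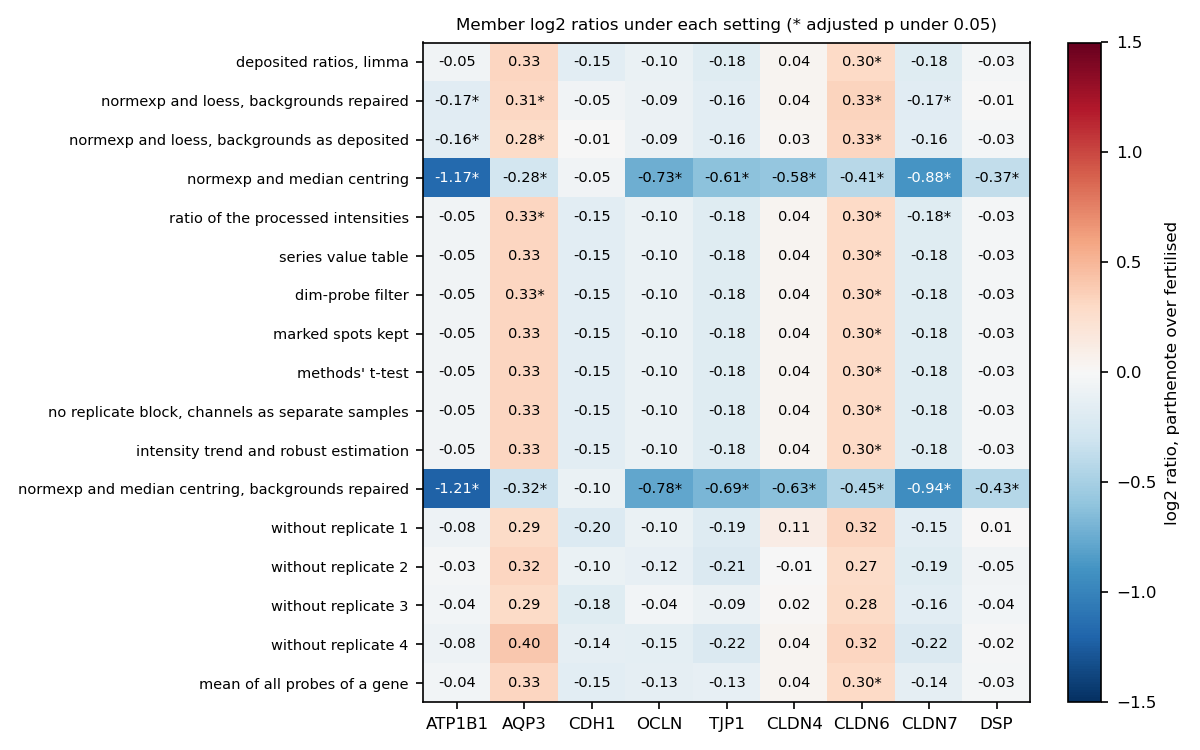
Log2 ratio of parthenote over fertilised (colour and printed value) of the 9 genes (columns, brightest probe, or the mean of a gene's probes in the last row) under the 17 settings (rows), with a star for an adjusted p under 0.05. CLDN6 carries a star in 13 settings, 2 of them in the opposite direction. The rows that median centred normexp signals shift every gene but CDH1 downwards and turn AQP3, CLDN4 and CLDN6 negative.

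The median-centred settings apply no correction of the dye balance that depends on brightness. In the first of them the median log2 ratio of probes well above background was -0.40, and that of the brightest 1% of probes was -1.33, against -0.02 and -0.05 in the deposited ratios. ATP1B1 was at -1.17 there and CLDN6 at -0.41, and why their ratios moved was not tested. The settings with loess, which do correct for brightness, gave CLDN6 0.33 in both and AQP3 0.31 and 0.28, and both genes passed.

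Other genes of the same systems were counted from 6 lists, without the 9 genes. Of 82 genes with a probe, 7 rose and 7 fell, 17.1% in all, and the median of their absolute log2 ratios was 0.19. Of all probes 20.6% were called, and 29.5% of those well above background in every pool. The 82 were the brightest probes of their genes, but not all of them were well above background. Of the 7 that rose, FXYD4, PALS1, NECTIN2, JUP and PKP2 turned sign in both median-centred settings, while PARD6A was at 0.01 and -0.01 and MPDZ at 0.04 and 0.07 there and neither passed.

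In the sodium pump list 1 of 6 genes rose and 0 fell. FXYD4, a small regulator of the Na,K-ATPase, had signals of 6452, 5816, 6406 and 5354 in the parthenote pools and 4686, 4787, 4980 and 4401 in the fertilised pools. The groups did not overlap, which only describes the pools, since the share of all probes without overlap is not given here. The log2 ratio of FXYD4 was 0.35 ± 0.09 with an adjusted p of 0.0207. Of 10 other aquaporins 1 fell, AQP8, with a log2 ratio of -0.12 ± 0.05 and an adjusted p of 0.0449, but its other probe was at 0.12 ± 0.25 and the call held in 5 of 17 settings.

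Of 17 genes of sodium, proton, chloride and bicarbonate transport, 0 rose and 3 fell. SLC4A2, an exchanger of chloride for bicarbonate, gave 63.0, 60.1, 54.5 and 56.9 in the parthenote pools and 109, 115, 111 and 108 in the fertilised pools. Its log2 ratio of -0.92 ± 0.10 had an adjusted p of 0.00748 and was -0.48 with normexp and loess. SLC9A3, an exchanger of sodium for protons in apical membranes, was at -1.07 ± 0.33 with an adjusted p of 0.0297, well above background in 3 of 4 parthenote pools, and at -0.40 with normexp and loess. SLC4A4, a cotransporter of sodium and bicarbonate, was at -3.36 ± 1.45 and missed the threshold with an adjusted p of 0.0516, and it was well above background in all 4 fertilised pools but in 1 parthenote pool, so the size of this ratio is uncertain.

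Of 29 other tight junction genes 3 rose and 2 fell. Those that rose were MPDZ at 0.58 ± 0.16, PARD6A at 0.41 ± 0.08 and PALS1 at 0.39 ± 0.13, with adjusted p of 0.0236, 0.0151 and 0.0314. CLDN12 at -0.23 ± 0.09 and CLDN11 at -0.20 ± 0.06 were lower, with adjusted p of 0.0424 and 0.0275. For both the groups overlapped, and the calls held in 9 and 10 of 17 settings. With normexp and loess and backgrounds as deposited their adjusted p were 0.108 and 0.0797. CLDN8 was at 2.02 ± 0.87 and just missed the threshold, with an adjusted p of 0.0511 and signals of 236, 810, 603 and 556 in parthenote pools against 142, 134, 115 and 108 in fertilised pools. Of 11 adherens junction genes, NECTIN2 at 0.37 ± 0.10 and JUP, the plakoglobin shared by adherens junctions and desmosomes, at 0.19 ± 0.07 rose. The other JUP probe was at 0.21 ± 0.18 and was not called, with an adjusted p of 0.184. NECTIN1 fell at -1.20 ± 0.30 with an adjusted p of 0.0207 and with all 4 of its probes called, and its brightest probe was well above background in 2 of 4 parthenote pools. With normexp and loess it was at -0.44, and with backgrounds as deposited at -0.31 with an adjusted p of 0.0589. Of 10 desmosome genes JUP and PKP2, a plaque protein at 0.34 ± 0.09, rose, and the other PKP2 probe was at 0.16 ± 0.12.

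**Figure D4:**
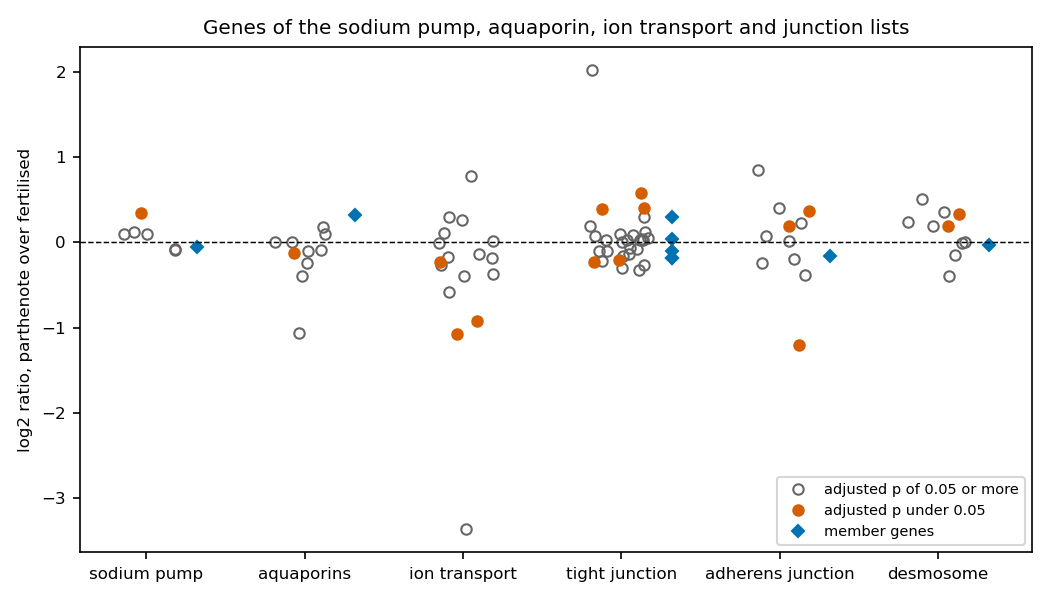
Log2 ratio of parthenote over fertilised (vertical axis, no unit) for genes of the 6 lists, with filled circles for an adjusted p under 0.05, open circles for the rest and diamonds for the 9 genes described here. The diamonds lie between -0.18 and 0.33. The open circle at -3.36 is SLC4A4 and the one at 2.02 is CLDN8.

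Markers of blastocyst cells and of the reproductive tract were also read. The counts below stand beside 9.53% of all probes on the array called higher in parthenotes and 11.1% called lower. All 7 trophectoderm markers with a probe were well above background in every pool, with summed signals of 29891 to 43393 in parthenotes and 30050 to 33900 in fertilised embryos. Of these KRT8 rose at a log2 ratio of 0.58 and GATA2 fell at -0.64, and the median log2 ratio of the 7 was -0.26. A summed signal follows its brightest probes, here KRT8 with mean signals of 23844 in parthenote pools and 15760 in fertilised pools. All 4 markers of oviduct and uterine secretory epithelium with a probe rose, with summed signals of 5947 to 26159 in parthenote pools and 704 to 2292 in fertilised pools, and so did 4 of 8 motile cilia markers, at 1111 to 3400 against 348 to 493. The study's own list of raised genes from these arrays held OVGP1 and SCGB1A1 of the secretory markers, CAPS of the cilia markers and CD48 of the leukocyte markers. The marker lists were chosen with earlier results of these data known, so such rises are not separate evidence. CAPS made up most of the cilia sums, with mean signals of 1629 in parthenote pools and 274 in fertilised pools. FOXJ1, a defining factor of ciliated cells, was not well above background in any pool. Of the leukocyte markers 4 of 8 rose, at 531 to 587 against 325 to 350, with PTPRC and CD3E not well above background in any pool. Of the stromal markers 1 of 10 rose, TAGLN, with mean signals of 3974 in parthenote pools and 2514 in fertilised pools. TAGLN made up most of the stromal sums of 3664 to 5074 against 2342 to 3223. COL1A1 and ACTA2 were not well above background in any pool. CLDN6, AQP3, FXYD4 and CLDN8, which are genes of epithelia, had higher signals in the parthenote pools, though AQP3 and CLDN8 were not called. Other genes of epithelia had lower log2 ratios without a call, with EPCAM at -0.38, KRT19 at -0.37 and CLDN7 at -0.18. CDH1, OCLN and TJP1 were lower as well. The part of tract RNA in any of these ratios was not tested.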

How the data were processed

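The spots of the 4 arrays were extracted with Agilent Feature Extraction 10.10.1.1, per the file headers. The authors deposited, per spot, a log10 ratio (Cy5 against Cy3) that was already background-subtracted and dye-normalised, and processed, mean and background intensities of each channel. The series value table they deposited holds log10 ratios of the same spots with the sign turned, Cy3 against Cy5. For this work the log10 ratios were turned to log2 with the parthenote channel on top. Control spots were dropped, 26 to 48 marked outlier spots per array became missing, replicate spots were averaged, and 43595 of 43603 probes had a value on at least 3 arrays. Between 25805 and 26339 of 43803 spots were well above background in parthenote channels and between 27508 and 27835 in fertilised channels. With only 4 arrays, precision is limited by their number. The ratios of any pair of arrays correlated at r of 0.67 to 0.81 over the probes, a description only.

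The test was limma 3.58.1 (R 4.3.3), mean ratio against 0, two-sided, with Benjamini-Hochberg adjustment, and its script was tested on simulated data. A gene was represented by its probe with the highest mean signal. Probes were named through accessions and RefSeq gene names, 23251 in all. Genes named from the lists had passed the test with 1 sign on all 4 arrays, up to 4 per list and direction, and SLC4A4 and CLDN8 were chosen after their values were seen. Some genes counted in the lists are not reported here by name. The 9 genes and all lists were chosen with earlier results of these data known. Alternatives were normexp (offset 50) then loess or median centring, ratios of processed intensities, the value table, a filter on dim probes, marked spots kept, the methods' t-test, channels as separate samples, an intensity trend with robust estimation, the mean of a gene's probes, and leaving out each array. Where backgrounds are called repaired, 8 Cy3 and 10 Cy5 spots of array 2 and 1 of each on array 4, whose backgrounds were far above their signals, took the array median. The pools of an array deviated together (r of 0.39 to 0.48), so the ratio within an array was kept. A single slide held all arrays, so no batch could be compared.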

Additional observations from a re-analysis of the deposited data

Results flagged for a closer look

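Of 30 sets of 4 ratios examined for 1 array far from the other 3, 2 stood apart, and chance alone marks about 1 in 20. The CLDN7 probe A_04_P063335 had a log2 ratio of 0.0192 on array 4, against -0.22 to -0.20 on the other arrays. The PALS1 probe A_04_P086523 had a log2 ratio of 0.58 on array 3, against 0.31 to 0.35 on the others.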

How the results depend on the processing

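The deposited ratios called 8996 probes in all, 1 member probe, 0 pump and channel genes, 1 junction gene and 14 list genes. With normexp and loess and repaired backgrounds these counts were 13117, 5, 2, 2 and 23, and with backgrounds as deposited 6512, 4, 2, 1 and 14. With normexp and median centring they were 31610, 15, 2, 6 and 64, and with repaired backgrounds, an alternative chosen after seeing the data, 37959, 15, 2, 6 and 73. In those 2 settings AQP3 was at -0.28 and -0.32, CLDN4 at -0.58 and -0.63 and CLDN6 at -0.41 and -0.45 on the log2 scale, where probes well above background had medians of -0.40 and -0.47. The ratio of processed intensities, which moved the median of all probes by 0.10, gave 21399, 4, 1, 2 and 27, with 65.0% of calls higher in parthenotes against 46.2%. The dim-probe filter gave 2 member probes and 1 pump and channel gene, AQP3. The methods' t-test gave 4435 probes and 6 list genes. Without the replicate block, with channels as separate samples, 16358 probes were called, 68.0% of them higher, and the member counts did not change. Leaving out 1 array gave 1239 to 5736 probes, 0 to 1 member probes, 0 to 0 pump and channel genes, 0 to 0 junction genes and 0 to 12 list genes. The 1 member probe was called without array 4 and was lower in parthenotes, so it was not the CLDN6 probe. Over the same omissions DSP ran from -0.055 to 0.011, positive without array 1, and CLDN4 from -0.0066 to 0.11, negative without array 2. CDH1 never passed, and ATP1B1, OCLN, TJP1, CDH1 and CLDN7 kept their sign in all 17 settings. Leaving out an array leaves fewer samples, and for the other settings the cause of a changed count was not tested. The list genes SLC9A3, NECTIN1 and SLC4A4 were not well above background in every parthenote pool, and a dye swap would be needed to part dye from group.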
